A study of Homo sapiens with 6 samples.

Results

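The histone marks H3K4me3 and H3K27me3 were compared at every protein-coding gene of D283 tumorspheres in the control state, using 2 of the 6 chromatin immunoprecipitation (ChIP) sequencing libraries of the study. A gene was placed in one of 4 classes by whether a peak of H3K4me3, of H3K27me3, of both marks or of neither reached within 2 kb of either of its RefSeq ends on GRCh38. Of 19821 genes on chromosomes 1 to 22 and X, 12500 had H3K4me3 alone, 1435 had both marks, 1284 had H3K27me3 alone and 4602 had neither.

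D283 is an established cell line of Group 3 medulloblastoma, a malignant childhood tumour of the cerebellum, and was grown as floating tumorspheres in neural precursor medium, on plates to which cells hardly attach. Control cells received scramble siRNA and are called OTX2high. OTX2low cells received siRNA against OTX2, a homeobox transcription factor of brain and retina, at 30 nM. Each mark was profiled in 1 library per condition, and the 2 remaining libraries are IgG controls whose title and silencing label disagree; those 2 were put in no group and were not analysed here.

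The condition of the H3K27me3 library is given in 2 ways. The list used here is named OTX2high in its header, but the sample that holds it is labelled OTX2low; the list of the sample labelled OTX2high is named OTX2low in its header. Both lists named OTX2high by their headers, H3K4me3 and H3K27me3, were called against an IgG library of 85840108 tags, and both lists named OTX2low against one of 55079542 tags. The classes below follow the headers, values with the other H3K27me3 list are given where they change the most frequent class of a group described below, and no direction between the conditions was drawn. With 1 library per mark there is no replicate error: intervals are exact Clopper-Pearson 95% intervals that cover counting over genes only, and no test was made.

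H3K4me3 is written by the Trithorax-related SET1 and MLL complexes and lies over the starts of genes that are active or ready for activity. H3K27me3 is written by EZH2 in Polycomb repressive complex 2 and lies over genes held silent, among them many regulators of development. Promoters that carry both marks are called bivalent and were described first in stem cells, where they sit mainly at developmental genes; in a bulk population both marks at a gene can also come from different cells or different alleles.

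The promoters below are shown as examples of each class and of how far single genes vary around its sequence composition: a listed cell-identity or cell-cycle gene with H3K4me3 alone, developmental regulators with both marks, a developmental and a liver gene with H3K27me3 alone, and lineage factors with neither. Each is the 250 bases before the RefSeq start (GRCh38.p14), 5′ to 3′ on the strand of the gene, and capitals mark each CG dinucleotide (the letters CG, which read the same on both strands).
OTX2: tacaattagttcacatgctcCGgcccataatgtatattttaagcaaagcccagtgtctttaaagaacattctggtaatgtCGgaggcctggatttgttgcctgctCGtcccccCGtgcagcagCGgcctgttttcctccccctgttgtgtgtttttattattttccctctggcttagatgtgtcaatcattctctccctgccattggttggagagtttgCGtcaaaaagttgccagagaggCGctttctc
CDKN1B: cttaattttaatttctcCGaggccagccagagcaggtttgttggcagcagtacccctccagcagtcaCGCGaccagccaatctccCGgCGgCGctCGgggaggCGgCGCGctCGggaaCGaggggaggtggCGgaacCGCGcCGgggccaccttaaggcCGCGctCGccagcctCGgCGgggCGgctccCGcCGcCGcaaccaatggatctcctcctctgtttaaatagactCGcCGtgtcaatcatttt
PAX6: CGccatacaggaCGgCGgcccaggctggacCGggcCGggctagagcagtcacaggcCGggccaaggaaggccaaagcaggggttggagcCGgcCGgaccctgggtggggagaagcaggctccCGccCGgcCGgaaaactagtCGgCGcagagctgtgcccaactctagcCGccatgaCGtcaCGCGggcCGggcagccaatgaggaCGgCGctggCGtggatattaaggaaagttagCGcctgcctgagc
ZIC2: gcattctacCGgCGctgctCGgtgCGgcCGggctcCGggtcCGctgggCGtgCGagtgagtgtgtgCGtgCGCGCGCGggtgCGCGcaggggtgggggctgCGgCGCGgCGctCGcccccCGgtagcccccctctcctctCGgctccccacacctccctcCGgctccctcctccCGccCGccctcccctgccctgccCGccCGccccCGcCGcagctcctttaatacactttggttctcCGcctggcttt
PAX3: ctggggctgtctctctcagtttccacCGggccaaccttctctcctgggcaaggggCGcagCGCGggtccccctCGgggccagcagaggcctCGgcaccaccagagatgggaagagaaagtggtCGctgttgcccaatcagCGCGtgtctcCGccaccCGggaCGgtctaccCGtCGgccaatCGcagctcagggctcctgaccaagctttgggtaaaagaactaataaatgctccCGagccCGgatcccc
F10: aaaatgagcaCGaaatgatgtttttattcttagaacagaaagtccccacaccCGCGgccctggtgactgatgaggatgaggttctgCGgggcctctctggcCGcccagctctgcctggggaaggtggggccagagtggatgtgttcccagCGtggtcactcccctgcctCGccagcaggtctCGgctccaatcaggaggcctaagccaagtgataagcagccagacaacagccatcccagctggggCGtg
PAX8: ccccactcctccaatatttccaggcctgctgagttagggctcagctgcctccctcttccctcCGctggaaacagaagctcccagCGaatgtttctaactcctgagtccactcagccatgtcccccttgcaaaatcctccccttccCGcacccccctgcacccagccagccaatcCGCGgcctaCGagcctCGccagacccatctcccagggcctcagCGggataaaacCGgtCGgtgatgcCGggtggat
GATA1: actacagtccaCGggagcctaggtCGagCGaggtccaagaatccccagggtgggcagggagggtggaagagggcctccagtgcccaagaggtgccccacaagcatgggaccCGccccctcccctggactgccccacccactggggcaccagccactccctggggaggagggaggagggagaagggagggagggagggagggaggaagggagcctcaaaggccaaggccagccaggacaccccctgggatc

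The number of CG dinucleotides in these stretches was 7 at OTX2 (chr14:56810480-56810729, minus strand), 27 at CDKN1B (chr12:12717118-12717367, plus strand), 22 at PAX6 (chr11:31817962-31818211, minus strand), 31 at ZIC2 (chr13:99981534-99981783, plus strand), 17 at PAX3 (chr2:222298999-222299248, minus strand), 9 at F10 (chr13:113122549-113122798, plus strand), 11 at PAX8 (chr2:113278922-113279171, minus strand) and 4 at GATA1 (chrX:48786340-48786589, plus strand). OTX2 had the fewest CG of the pair shown with H3K4me3 alone and PAX3 had more than F10, and OTX2 also had fewer than PAX3, F10 and PAX8, so single genes did not all follow their class. Over the listed promoters, the median was 21 CG in 10276 promoters with H3K4me3 alone and 22 in 1053 with both marks. It was 4 in 936 promoters with H3K27me3 alone and 4 in 3547 with neither. At least 10 CG were found in 86.3% and 82.3% of the H3K4me3 classes, in 19.9% and 24.6% of the classes without H3K4me3, and in 68.3% of all 15812 listed promoters.

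Promoter composition was thus shared across the border between H3K4me3 alone and both marks, and differed across the border set by H3K4me3. In the listed windows (250 bases before to 50 after the start) the observed over expected CpG ratio had a median of 0.84 with H3K4me3 alone (quartiles 0.70 and 0.95), 0.79 with both (0.62 and 0.91), 0.26 with H3K27me3 alone (0.14 and 0.43) and 0.28 with neither (0.14 and 0.53). The median GC content was 65.3% with H3K4me3 alone, 69.0% with both, 53.7% with H3K27me3 alone and 51.0% with neither. Read the other way, 83.6% of the 10362 promoters with a ratio over 0.6 were at genes with H3K4me3 alone, 7.79% at genes with both marks and 1.25% at genes with H3K27me3 alone. Of the 3994 promoters with a ratio of at most 0.4, 21.2% had H3K4me3 alone, 3.23% both, 17.2% H3K27me3 alone and 58.3% neither. The promoter table covered 82.2% of genes with H3K4me3 alone but 73.4% of those with both, 72.9% of those with H3K27me3 alone and 77.1% of those with neither; under 80% the comparison is void as a statement on a whole class, and the values describe the listed promoters.

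H3K4me3 alone was the most common state, and H3K27me3 genes were split about evenly between those with and those without H3K4me3. The shares of all genes were 63.1% for H3K4me3 alone (62.4 to 63.7), 7.24% for both (6.88 to 7.61), 6.48% for H3K27me3 alone (6.14 to 6.83) and 23.2% for neither (22.6 to 23.8). Of the 2719 genes with H3K27me3, 52.8% (50.9 to 54.7) also had H3K4me3. Of the 13935 genes with H3K4me3, 10.3% (9.80 to 10.8) also had H3K27me3. Of the 5886 genes without H3K4me3, 21.8% (20.8 to 22.9) had H3K27me3.

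The lists behind these counts differed in form. The H3K4me3 list held 33201 peaks with a median length of 879 bp from 33137731 tags, and the H3K27me3 list held 102810 peaks with a median length of 139 bp from 33885628 tags. The tag number was similar, but the fragment length the peak caller used was 189 bp for H3K4me3 and 78 bp for H3K27me3. The other H3K27me3 list, with a fragment length of 169 bp and 40271458 tags, held 158878 peaks of 332 bp median length and covered 97.0 Mb against 20.2 Mb. With that list, 2310 genes had both marks, 1861 had H3K27me3 alone, 11625 had H3K4me3 alone and 4025 had neither, so the number of genes with both marks depends on which list stands for the control state. Moving the window border changed little: 2650 genes had H3K27me3 within 1800 bp, 2719 within 2000 bp and 2770 within 2200 bp, and 13879, 13935 and 13986 genes had H3K4me3.

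Genes with both marks had lower and shorter H3K4me3 than genes with H3K4me3 alone, while their H3K27me3 was much like that of genes with H3K27me3 alone. The highest H3K4me3 pileup (the number of overlapping extended reads at a peak's summit, as deposited) had a median of 158 with H3K4me3 alone (quartiles 116 and 186) and 74 with both (38 and 118). H3K4me3 covered a median of 2653.5 bp of the windows with H3K4me3 alone (2042 and 3285) and 1680 bp with both (1048.5 and 2490.5). For H3K27me3 the median covered length was 739 bp with both (246 and 1583) and 600 bp with H3K27me3 alone (210 and 1564.5), and the median highest pileup was 11 in each (9 and 13 in each). More than 1 kb of H3K27me3 was present at 588 of 1435 genes with both (41.0%) and at 460 of 1284 genes with H3K27me3 alone (35.8%). Under the other H3K27me3 list the H3K4me3 pileup medians were 160 alone and 94 with both, and H3K27me3 covered 1716.5 bp with both and 2456 bp alone, so the order of the 2 H3K27me3 lengths changed.

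**Figure D1:**
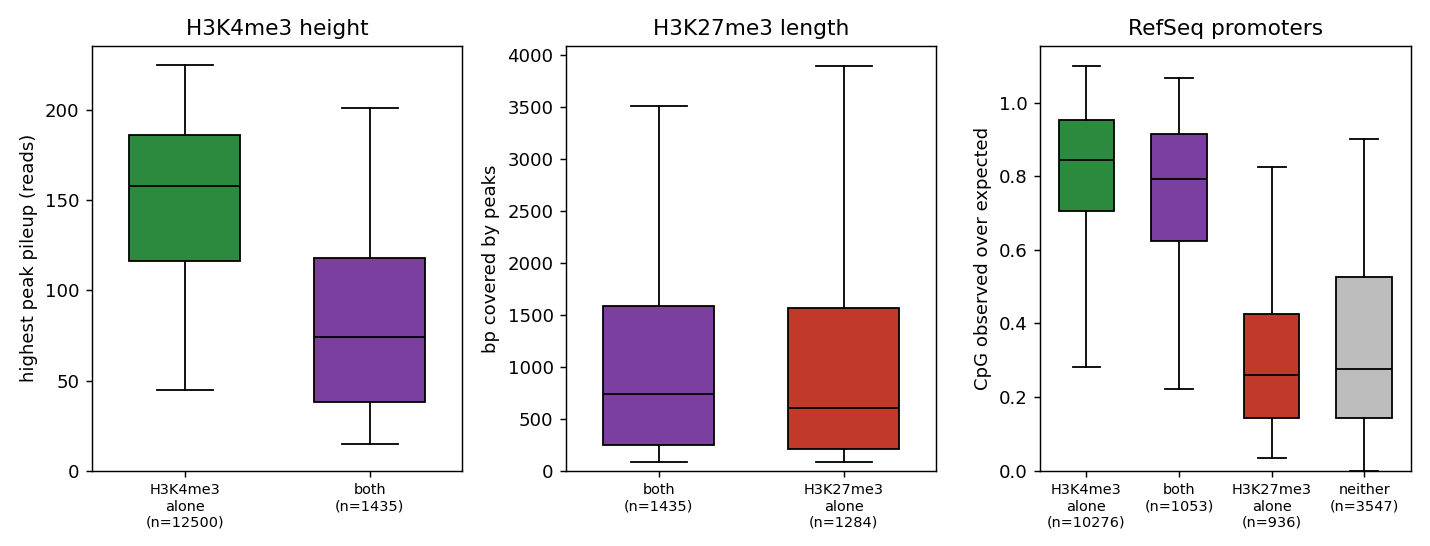
Highest H3K4me3 pileup (reads), bp covered by H3K27me3 in the windows of a gene, and CpG observed over expected in the RefSeq promoters, each by class, with the median as the line, the quartiles as the box and the 5th and 95th percentiles as whiskers. The median H3K4me3 pileup is 158 at genes with H3K4me3 alone and 74 at genes with both marks, the H3K27me3 boxes are alike, and the CpG ratio is 0.84 and 0.79 in the classes with H3K4me3 and 0.26 and 0.28 in those without.

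At genes with both marks the peaks mostly met. A peak of each mark overlapped the other by at least 1 bp at 1027 of the 1435 genes (71.6%, 69.2 to 73.9), with a median overlap of 309 bp. At 198 genes (13.8%) the nearest peaks lay 1 to 1000 bp apart and at 210 (14.6%) more than 1000 bp apart. Among 793 genes with both marks that are longer than 4 kb and have a listed start, 613 (77.3%) had both marks in the window at the start. H3K27me3 lay in the start window only at 443 of them (55.9%), in the far window only at 138 (17.4%) and in both windows at 212 (26.7%).

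H3K27me3 without H3K4me3 often reached both ends of a gene. Of the 584 genes of that class that are longer than 4 kb and have a listed start, 317 (54.3%) had H3K27me3 in both windows, 146 (25%) at the start only and 121 (20.7%) at the far end only. H3K4me3 alone was a mark of the start: 7214 of 8384 genes (86.0%) had it in the start window only. The classes also differed in gene length, with medians of 30.0 kb for H3K4me3 alone, 23.5 kb for both, 9.70 kb for H3K27me3 alone and 16.3 kb for neither.

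Around the start of genes with both marks, H3K27me3 was lower at the start itself than on either side. Only genes with a listed start at the gene's end were used: 9148 with H3K4me3 alone, 917 with both, 812 with H3K27me3 alone and 2915 with neither. H3K4me3 covered the point 200 bp after the start at 94.5% of genes with H3K4me3 alone and at 80.0% of genes with both. In genes with both, H3K27me3 covered 20.4% of genes at 600 bp before the start, 11.3% at the start itself and 25% at 1000 bp after it. The low point at the start lay where H3K4me3 covered 77.2% of the same genes. In genes with H3K27me3 alone the coverage at the start was 19.8%, and 10 kb away it was 9.48% upstream and 10.2% downstream, against 5.67% and 7.42% in genes with both. The classes require a peak within 2 kb of a gene end, so part of the excess near the start is set by the rule.

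**Figure D2:**
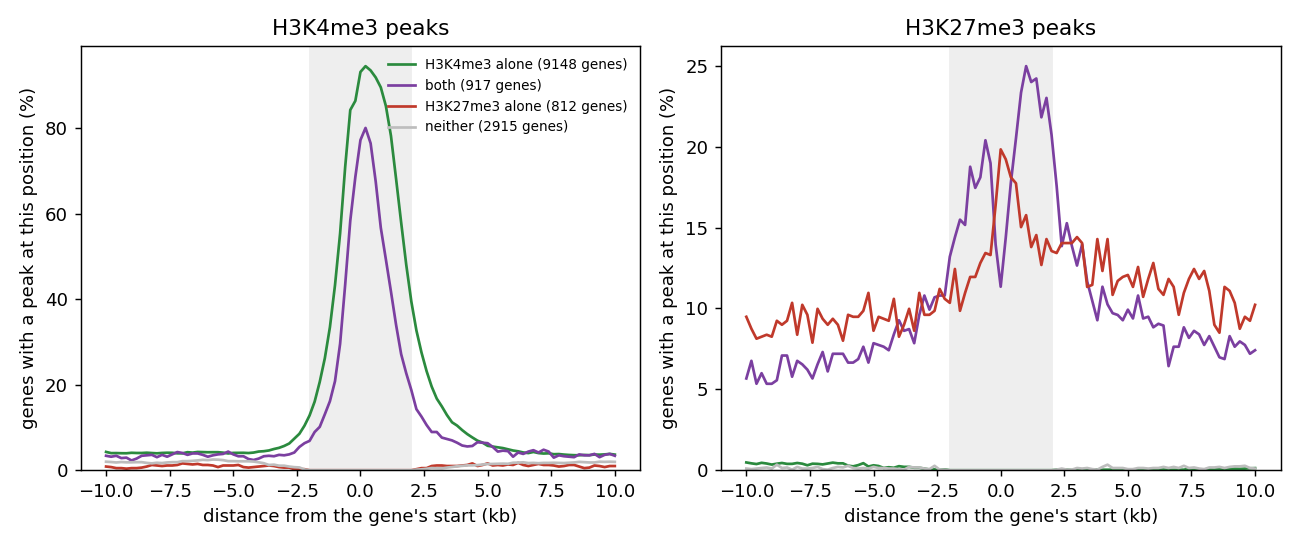
Percent of genes covered by a peak of each mark, in steps of 200 bp from 10 kb before to 10 kb after the start, for each class (lines), with the 2 kb windows in grey. Only genes with a listed start at the gene's end are drawn. H3K4me3 is highest at 200 bp after the start, and H3K27me3 in genes with both marks is lower at the start (11.3%) than 600 bp before (20.4%) or 1000 bp after it (25%).

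The genes with the most mark in each class give a first view of function. With H3K4me3 alone, the 10 genes with the longest coverage were RPL23A, OTX2, TBR1, TRIM52, ABHD14B, CDKN1B, IRF2BP2, ZFP36L2, HES7 and HSPA8. At OTX2 (chromosome 14, 56799905 to 56810479) H3K4me3 filled all 8002 bp of the 2 windows with a highest pileup of 142, in a single peak that ran from -8525 to 13630 bp relative to the start, and no H3K27me3 peak was listed within 10 kb. H3K4me3 also filled 8002 bp at TBR1, a T-box factor of glutamatergic neurons (highest pileup 139), and at RPL23A, a ribosomal protein gene (214). CDKN1B, which encodes the cell-cycle inhibitor p27, had 7912 bp with a pileup of 111.

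With both marks, the genes ranked by the smaller of their 2 ranks were SKOR1, SOX21, HAPLN2, DLX2, IRX1, ZIC2, FEZF2, RAX, LOC124903570 and ADM. Of these 10, 7 (all but HAPLN2, LOC124903570 and ADM) encode transcriptional regulators with roles in nervous system or eye development; HAPLN2 encodes a link protein of brain matrix and ADM a vasodilator peptide. ZIC2, a zinc finger factor of cerebellar progenitors, had 4397 bp of H3K4me3 (pileup 118) and 3596 bp of H3K27me3 (pileup 22), of which 2095 bp overlapped. DLX2, a homeobox factor of inhibitory neurons, had 4588 bp and 3806 bp. SKOR1, a co-repressor of hindbrain and spinal neurons, had 6286 bp and 2545 bp.

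With H3K27me3 alone, the 10 genes were HOXB6, F10, LRCOL1, PRAC2, TBC1D3F, PGA4, AQP12A, AQP12B, TBC1D3H and C13orf46. HOXB6, a homeobox gene of the trunk axis, had 7256 bp of H3K27me3 with a highest pileup of 20. F10, which encodes coagulation factor X made in liver, had 6943 bp with a pileup of 24 in its windows. TBC1D3F and TBC1D3H, like AQP12A and AQP12B, have near-identical copies in the genome, where reads and peaks cannot be assigned to one copy with certainty.

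**Figure D3:**
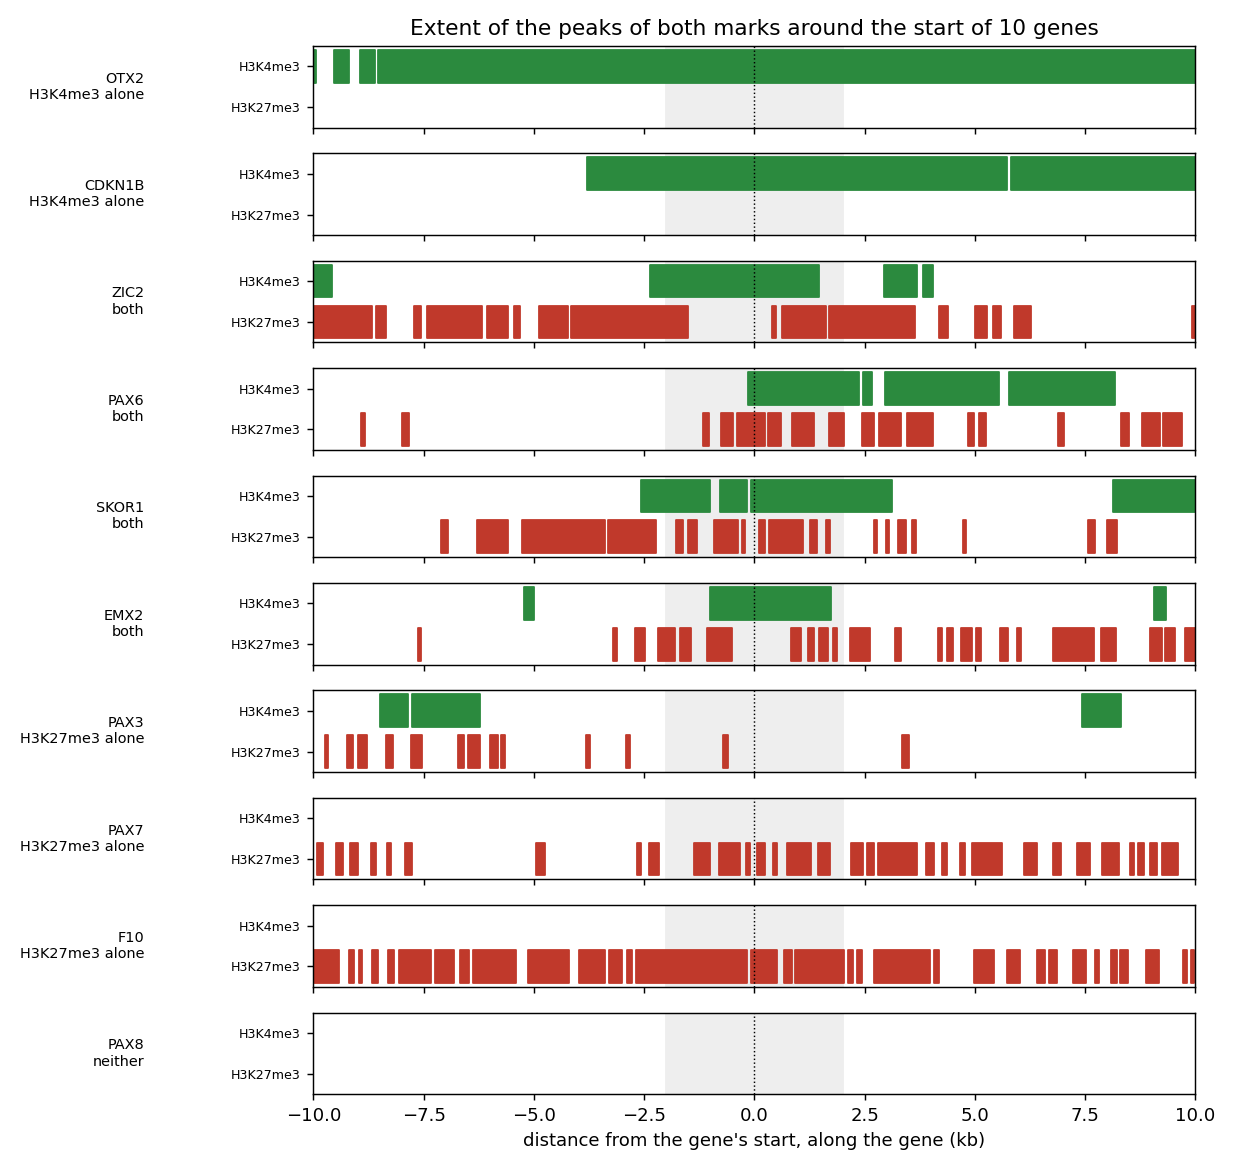
Peaks of H3K4me3 and H3K27me3 within 10 kb of the start of 10 genes, drawn by distance from the start in kb, with the window of 2 kb on either side in grey. OTX2 and CDKN1B show H3K4me3 only, ZIC2, PAX6, SKOR1 and EMX2 show both marks, PAX7 and F10 show H3K27me3 only, PAX3 shows H3K27me3 near its start and H3K4me3 only farther away, and PAX8 shows no peak.

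The functions below come from 97 lists and families that hold 4683 distinct genes, so each class also holds genes that none of them names. The machinery that every cell needs was almost wholly in the class of H3K4me3 alone. Across 13 families of basic machinery (ribosome, respiratory chain, proteasome, RNA polymerase, splicing, repair, transport and others), 674 of 743 genes (90.7%) had H3K4me3 alone against 63.1% of all genes, 18 had both and 3 had H3K27me3 alone. All 28 housekeeping genes and all 30 Mediator subunits had H3K4me3 alone. Among the cytosolic ribosomal proteins 83 of 86 had it alone; RPL10L and RPL26L1 were among those with neither mark in their windows.

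Growth and division genes showed the same class. Of the mTOR pathway, which couples nutrients to growth, 39 of 40 genes had H3K4me3 alone, among them AKT1S1 (6295 bp, pileup 214), and PRR5 had both. Of the cell-cycle and replication genes 50 of 53 had H3K4me3 alone, among them PCNA, the replication clamp (5895 bp, pileup 187). The exceptions were CCND1 and POLD1 with both marks and ORC1 with neither. CCND1, the cyclin of early G1, had 792 bp of H3K4me3 with a pileup of 30 and 1790 bp of H3K27me3 with a pileup of 15. ORC1 had 3921 bp of H3K4me3 (pileup 206) inside the gene.

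Of the 7 CDK inhibitors, 5 had H3K4me3 alone and 2 had both marks. The pair with both marks was CDKN2A (2189 bp of H3K4me3 and 1181 bp of H3K27me3) and CDKN2B (1597 bp and 591 bp), neighbours on chromosome 9. Both encode INK4 inhibitors, and the locus is a classical Polycomb target. Their H3K4me3 pileups, 124 and 119, lay below the median of 153 over all genes with the mark, but above the upper quartile of 118 at genes with both marks.

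The writers of the 2 marks and the MYC family were mainly in the H3K4me3 class. Of 45 Polycomb and Trithorax genes 38 had H3K4me3 alone, BMI1, PHC1 and RING1 had both, and PCGF5, AEBP2, SETD1B and PHF19 had neither in their windows. Those 4 had H3K4me3 inside the gene, from 4238 bp at PCGF5 to 16649 bp at SETD1B. RING1 had the most H3K27me3 of the 3 with both, 565 bp against 125 bp at BMI1 and 139 bp at PHC1. Of 13 MYC family genes 12 had H3K4me3 alone: MYC had 4037 bp with a pileup of 297 and MYCN had 3171 bp with a pileup of 155. MLXIPL had both.

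The genes used here to mark Group 3 medulloblastoma were in the H3K4me3 class. Of the 8 (IMPG2, GABRA5, EYS, NRL, MAB21L2, NPR3, OTX2 and MYC) 7 had H3K4me3 alone, and NPR3 had neither in its windows but 9028 bp of H3K4me3 (pileup 136) inside the gene, at another listed start. Of the 6 Group 4 genes 4 had H3K4me3 alone, KCNA1 had both and OAS1 had H3K27me3 alone (141 bp). Of the 5 Sonic hedgehog (SHH) genes HHIP and PDLIM3 had H3K4me3 alone, ATOH1 and SFRP1 had both and EYA1 had neither. Of the 5 WNT genes TNC had H3K4me3 alone, EMX2, WIF1 and DKK2 had both and GAD1 had H3K27me3 alone. With windows at every listed start added, 4 of the 5 WNT genes had both marks and none had H3K27me3 alone. At a -log10 q of at least 5, 3 WNT genes had H3K4me3 alone and 1 had both. The panels are too small to compare with the shares of all genes. By the other H3K27me3 list, H3K4me3 alone was the class of 2 Group 4 genes, and 3 had both.

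Photoreceptor genes, which Group 3 tumours are known to express in part, were split. Of 43, 19 (44.2%) had H3K4me3 alone and 20 (46.5%) had neither, against 63.1% and 23.2% of all genes. A further 2 had both (RAX and VSX1) and 2 had H3K27me3 alone (GNAT1 and PDE6B). CRX, the photoreceptor homeobox factor, had 4001 bp of H3K4me3 with a pileup of 164, and NRL, the rod factor, had 3457 bp with 181. GNAT1, the rod transducin, had 179 bp of H3K27me3, and PDE6B, a rod phosphodiesterase subunit, had 507 bp. The start-side setting covers only the 13792 genes with a listed start at the gene's end. Start-side counts here and below can therefore leave out members of a list. With the start side only, 13 photoreceptor genes had H3K4me3 alone and 12 had neither. With the other H3K27me3 list 18 had each.

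Regulators of body plan and nervous system held high shares of genes with both marks. Of 39 HOX genes, which set position along the body axis, 23 (59.0%) had both marks, 9 had H3K27me3 alone, 6 had H3K4me3 alone and HOXA10 had neither, against 7.24% of all genes with both. Members with H3K27me3 had a median of 3447.5 bp of it, against 671 bp over all genes with the mark, and those with H3K4me3 had a median pileup of 48, against 153. HOXC4 had 5325 bp of H3K4me3 and 148 bp of H3K27me3, and HOXB4 had no H3K4me3 and 5329 bp of H3K27me3, so members of the family lay at both extremes. All 6 with H3K4me3 alone (HOXA5, HOXA6, HOXA7, HOXA9, HOXA11 and HOXA13) are on chromosome 7, where few H3K27me3 peaks were listed at all. At a -log10 q of at least 5 12 HOX genes had both marks and 13 had H3K4me3 alone. The 39 genes form 4 clusters and shared windows and 240 distinct H3K27me3 peaks, so they are not independent.

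Both marks were also the most frequent class of 3 other homeobox groups. Of the 26 DLX, EMX, MSX, EN, GBX, BARHL, BARX, VAX, EVX, CDX and MNX genes 17 (65.4%) had both marks and 7 had H3K4me3 alone. CDX1 and CDX4, factors of the gut and posterior body, had neither. DLX1 had 3309 bp of H3K4me3 and 3636 bp of H3K27me3, and MSX1 had 4158 bp of H3K4me3 and none of H3K27me3. At a -log10 q of at least 5, 12 of the 26 had both marks and 12 had H3K4me3 alone. Of 14 NKX genes 8 had both, 4 had H3K4me3 alone, and NKX2-1 (3597 bp) and NKX2-5 (3007 bp), factors of thyroid and lung and of heart, had H3K27me3 alone. Of 12 LIM homeobox genes 6 had both, 5 had H3K4me3 alone and LHX5 had H3K27me3 alone (3560 bp). LHX1, a factor of Purkinje cells, had 4001 bp of H3K4me3 and 4276 bp of H3K27me3. With the start side only, LIM genes had H3K4me3 alone in 5 cases and both marks in 3.

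None of the 9 PAX genes and none of the 6 GATA genes had H3K4me3 alone. PAX2, PAX6 and PAX9 had both marks, PAX1, PAX3 and PAX7 had H3K27me3 alone, and PAX4, PAX5 and PAX8 had neither. PAX6, a factor of eye and of granule cells (chromosome 11, 31789026 to 31817961), had 2140 bp of H3K4me3 with a pileup of 57 and 2146 bp of H3K27me3 with a pileup of 13, which overlapped over 1498 bp. PAX3, a factor of neural crest and dorsal neural tube (chromosome 2, 222199887 to 222298998), had 1 H3K27me3 peak of 96 bp with a pileup of 10 in its windows, the least of the 3 with H3K27me3 alone. Its windows held no H3K4me3, but H3K4me3 peaks lay between -8497 and -6220 bp relative to the start, with pileups of 20 and 74, and from 7434 to 8313 bp, with a pileup of 31. PAX7 had 2045 bp and PAX1 2195 bp of H3K27me3. PAX3 had 2236 bp of H3K27me3 in the other list and stayed in its class, while PAX4 had 960 bp there, which gave 3 PAX genes with both marks, 4 with H3K27me3 alone and 2 with neither.

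Of the GATA genes, GATA3 and GATA6 had both marks, GATA2, GATA4 and GATA5 had H3K27me3 alone and GATA1, the factor of red blood cells, had neither. GATA2, a factor of blood stem cells, had 3615 bp of H3K27me3 in its windows. In the other H3K27me3 list GATA1 had 169 bp of the mark, so 4 GATA genes had H3K27me3 alone and none had neither. With the start side only, 2 GATA genes had both marks and 1 had H3K27me3 alone. When windows at every listed RefSeq start were added, GATA2 had both marks, and with the whole gene PAX3, PAX7, GATA4 and LHX5 had both as well. A class of H3K27me3 alone in these families thus describes the gene ends.

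Forkhead and SOX genes had H3K4me3 alone as their most frequent class, at 51.0% (36.6 to 65.2) and 57.9% (33.5 to 79.7). These intervals include the 63.1% of all genes. With the other H3K27me3 list 20 Forkhead genes had H3K4me3 alone and 20 both, and 8 SOX genes had each. H3K4me3 alone was not the most frequent class of POU genes when both gene ends were used. Of 15 POU genes 3 had H3K4me3 alone, 4 both, 2 H3K27me3 alone and 6 neither. With the start side only, 3 POU genes had H3K4me3 alone and 3 had neither. Of 51 Forkhead box genes 26 had H3K4me3 alone, 14 (27.5%) both and 5 H3K27me3 alone. FOXD3, a factor of neural crest, had 2485 bp and 3033 bp, and FOXA2, a factor of endoderm and floor plate, had 1958 bp of H3K27me3 alone. Of 19 SOX genes 11 had H3K4me3 alone, among them SOX4 (5965 bp) and SOX11 (4001 bp) of immature neurons. SOX1, SOX2, SOX8, SOX17 and SOX21 had both. SOX2, the factor of neural stem cells, had 669 bp of H3K4me3 with a pileup of 13 and 2190 bp of H3K27me3 with a pileup of 13, and SOX1 had 483 bp and 4311 bp. Zinc finger ZNF and ZSCAN genes stood at the other end, with 463 of 545 (85.0%) in H3K4me3 alone and 10 (1.83%) in both.

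Lineage factors of the cerebellum were mostly in the classes with H3K4me3. Of 39 granule and cerebellar lineage genes 22 (56.4%) had H3K4me3 alone and 15 (38.5%) had both, against 63.1% and 7.24% of all genes. LHX5 had H3K27me3 alone and PAX5 had neither. ZIC1 had 4676 bp of H3K4me3 (pileup 148) and CBLN1, a synaptic organiser of granule cells, had 5368 bp (174). ATOH1, the proneural factor of the rhombic lip, had 2925 bp of H3K4me3 (118) and 174 bp of H3K27me3. Of 52 basic helix-loop-helix lineage factors 21 had H3K4me3 alone, 15 (28.8%) both, 4 H3K27me3 alone and 12 neither. With the other H3K27me3 list 18 of them had H3K4me3 alone and 18 both. HES1 and HEY1, effectors of Notch, had 4486 bp and 6812 bp of H3K4me3 alone, NEUROG2 had 3459 bp with 868 bp of H3K27me3, and TWIST2, of mesoderm, had 1828 bp of H3K27me3 alone.

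**Figure D4:**
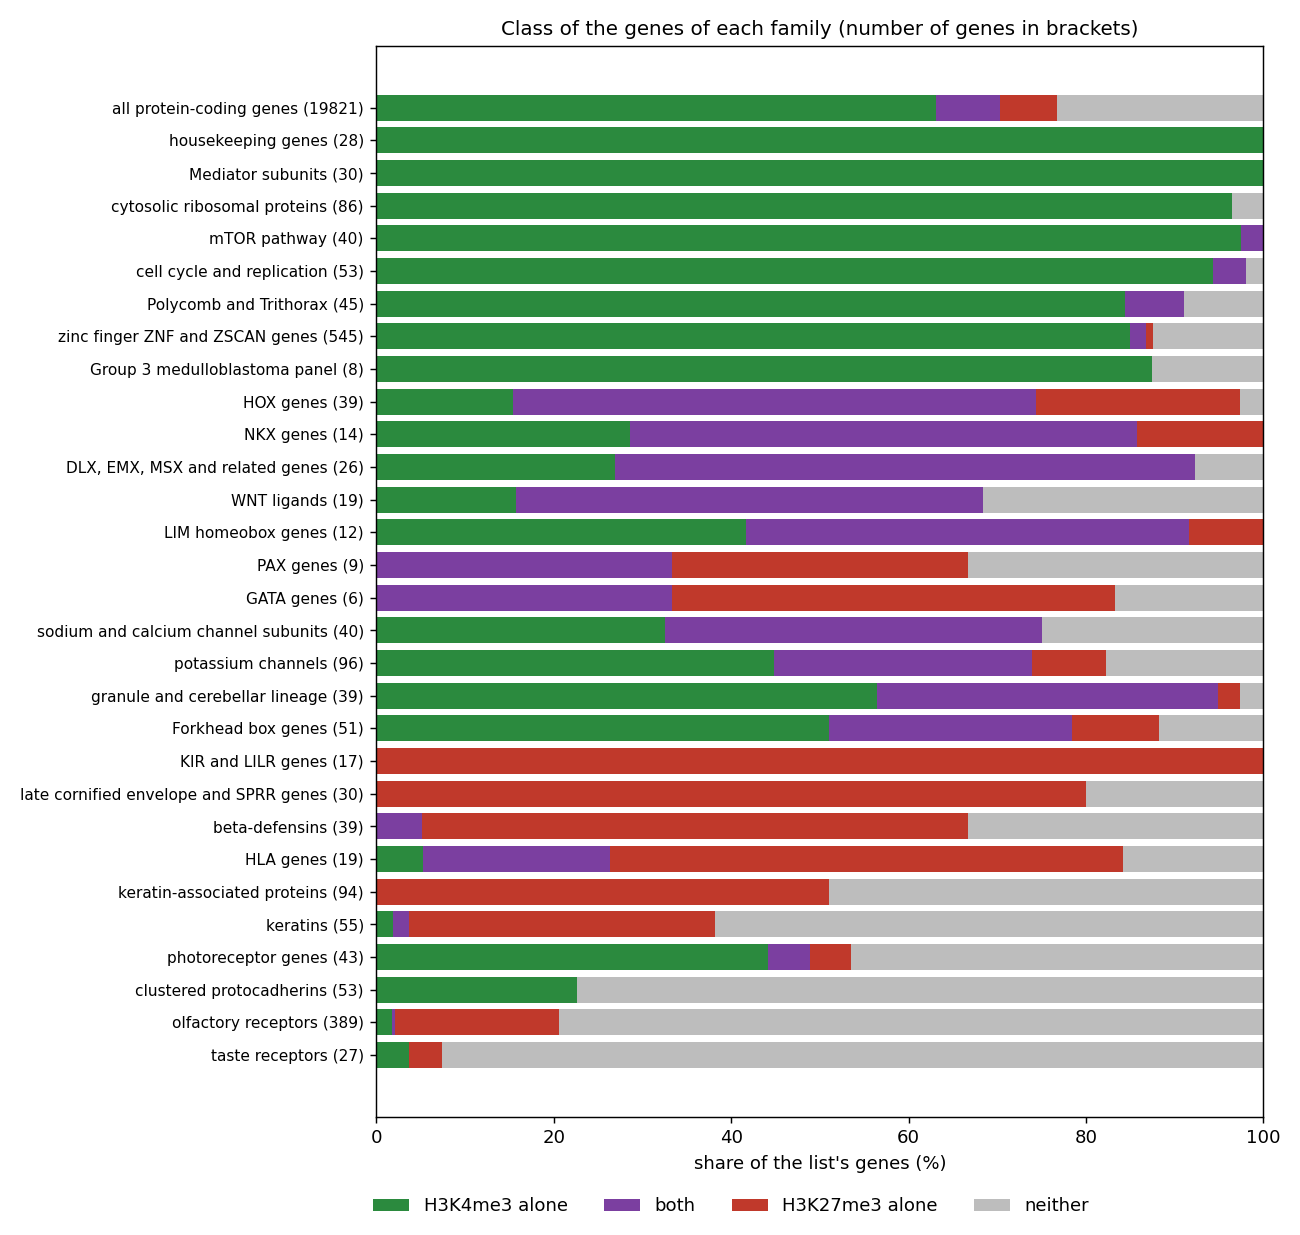
Percent of the members of gene lists and families in each class, beside the same shares over all 19821 genes. Basic machinery lies almost wholly in H3K4me3 alone, HOX and the DLX, EMX and MSX group in both marks, KIR and LILR genes wholly in H3K27me3 alone, and olfactory receptors mostly in neither.

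Genes of neuronal excitability differed by family. Over 8 families of channels, receptors and synaptotagmins 75 of 291 genes (25.8%, against 7.24% of all genes) had both, 135 had H3K4me3 alone, 19 had H3K27me3 alone and 62 had neither. Of 40 sodium and calcium channel subunits 17 had both and 13 had H3K4me3 alone. At a -log10 q of at least 5 the counts were 10 and 20, and with the start side only, which covers fewer of the 40, 7 and 9. Of 96 potassium channel genes 28 had both and 43 H3K4me3 alone. Of 26 glutamate receptor genes 9 had both, among them GRIN2C (3001 bp and 1832 bp), and 13 had H3K4me3 alone, among them GRIN2A (3068 bp) and GRIN2D (4481 bp). With the other H3K27me3 list 16 glutamate receptor genes had both and 6 had H3K4me3 alone, and 37 and 34 potassium channel genes. GABA and glycine receptors had both marks at 1 of 25 genes (4.00%, 0.10 to 20.4) and acetylcholine receptors at 2 of 21 (9.52%, 1.17 to 30.4). Both intervals include the 7.24% of all genes. With the other H3K27me3 list 5 of the 25 and 5 of the 21 had both.

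Genes for the shape and output of neurons were marked likewise. Of 33 genes of the neuronal cytoskeleton and its RNA-binding proteins 18 had H3K4me3 alone, among them TUBA1A (3658 bp) and NEFM (5003 bp), and 12 (36.4%) had both. ELAVL3, an RNA-binding protein of neurons, had 3593 bp of H3K4me3 and 651 bp of H3K27me3. STMN4 had H3K27me3 alone (283 bp), and ELAVL4 and GAP43 had neither. Of 36 genes of synaptic vesicles and release 24 (66.7%) had H3K4me3 alone, close to the 63.1% of all genes. SLC17A7, the vesicular glutamate transporter, had 4001 bp of H3K4me3 (pileup 134) and no H3K27me3, while SLC32A1, the vesicular GABA transporter, had 2163 bp (56) with 5519 bp of H3K27me3.

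Signalling families were spread over the classes. Of 19 WNT ligands 10 (52.6%) had both marks, 3 (WNT2, WNT2B and WNT11) had H3K4me3 alone and 6 had neither. With windows at every listed start added, 11 WNT ligands had both marks, 6 had H3K4me3 alone and 2 had neither. WNT1, the ligand of the midbrain-hindbrain boundary, had 3740 bp of H3K4me3 and 2606 bp of H3K27me3. Of the 10 Frizzled receptors for these ligands 8 had H3K4me3 alone and 2 had both; the intervals of the share with both marks overlap (28.9 to 75.6% for the ligands and 2.52 to 55.6% for the receptors). At a -log10 q of at least 5, 6 WNT ligands had both and 7 had H3K4me3 alone. Of 22 FGF ligands 9 had H3K4me3 alone, 3 both, 3 H3K27me3 alone and 7 neither; FGF3, FGF4 and FGF19, which are neighbours on chromosome 11, were the 3 with H3K27me3 alone (2860, 4056 and 3767 bp). Of the 5 FGF receptors 3 had H3K4me3 alone, and FGFR3 and FGFRL1 had both. Of 22 Eph receptors and ephrins, guidance cues of axons, 15 (68.2%) had H3K4me3 alone and 6 (27.3%) had both, against 63.1% and 7.24% of all genes. In the Hedgehog and Notch list 28 of 40 (70%, against 63.1% of all genes) had H3K4me3 alone, and SHH itself had H3K27me3 alone (486 bp).

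Genes of skin, immunity and secretion that lie in tandem clusters had high shares of H3K27me3 alone. Over keratins, keratin-associated proteins and the late cornified envelope and SPRR genes, 91 of 179 genes (50.8%) had H3K27me3 alone, against 6.48% of all genes, and 86 had neither. Of 94 keratin-associated proteins, the matrix of hair, 48 had H3K27me3 alone and 46 neither. Of 30 late cornified envelope and SPRR genes, the outer layer of skin, 24 had H3K27me3 alone with a median of 380.5 bp. KRT10 had H3K4me3 alone (2322 bp, pileup 213) and KRT77 had both. At a -log10 q of at least 5 H3K27me3 alone was the class of 26 keratin-associated proteins and of 6 late cornified envelope and SPRR genes. With the start side only 37 keratin-associated proteins had H3K27me3 alone and 43 had neither.

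Among immune families, the shares with H3K27me3 alone ran from all KIR and LILR genes to few interleukin genes. All 17 KIR and LILR genes, receptors of natural killer and myeloid cells on chromosome 19, had H3K27me3 alone, over 90 distinct peaks; LILRB3 had 3446 bp with a pileup of 18. Of 19 HLA genes 11 had H3K27me3 alone, 4 (HLA-B, HLA-C, HLA-E and HLA-F) had both, and HLA-G, HLA-DRA and HLA-DMA had neither. HLA-B had 1473 bp of H3K4me3 with a pileup of 83 and 2104 bp of H3K27me3. At a -log10 q of at least 5, 3 HLA genes had H3K27me3 alone and 12 had neither, while with the other H3K27me3 list 14 had H3K27me3 alone and none had neither. Of 39 beta-defensins 24 had H3K27me3 alone, and 13 at a -log10 q of at least 5. With the start side only, which covers fewer of the 39, 7 had H3K27me3 alone and 10 had neither. Of 78 interleukins and their receptors 43 had neither, 24 H3K4me3 alone, 7 H3K27me3 alone (8.97%, against 6.48% of all genes) and 4 both; IL10, IL19, IL20 and IL24, neighbours on chromosome 1, were among the 7. Of 43 chemokines 23 had neither, 11 H3K4me3 alone, 8 H3K27me3 alone and 1 both, and of 21 interferons 16 had neither, 4 H3K27me3 alone and 1 H3K4me3 alone.

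Many members of these families, and of the GAGE and MAGEA families below, are near-copies that can share reads, and neighbours share windows and peaks, so a count of genes is larger than a count of marked places. The 48 keratin-associated proteins with H3K27me3 had 202 distinct peaks on 3 chromosomes, and the 24 late cornified envelope and SPRR genes had 56 on chromosome 1. How the authors' alignment placed reads in such copies was not tested, and values at single members are uncertain.

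Proteases and enzymes of detoxification were mixed. Of 41 kallikreins and PRSS proteases 17 (41.5%, against 6.48% of all genes) had H3K27me3 alone. A further 14 had neither, 6 H3K4me3 alone and 4 both. At a -log10 q of at least 5, 8 of the 41 had H3K27me3 alone, and 9 with the start side only. Of 56 cytochromes P450 21 had neither, 17 (30.4%) H3K27me3 alone, 10 (17.9%) both and 8 H3K4me3 alone. Over all genes H3K27me3 alone held 6.48% and both marks 7.24%. CYP51A1, of cholesterol synthesis, had H3K4me3 alone (3041 bp). CYP26A1 and CYP26B1, which break down retinoic acid, had both (2685 and 1046 bp, and 4001 and 1667 bp). CYP2B6, of drug metabolism in liver, had H3K27me3 alone (1235 bp). Among cytochromes P450, 24 had H3K27me3 alone and 14 neither with the other list, and 12 each with the start side only.

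Sensory receptor genes had neither mark at a high share. Of 389 olfactory receptors 309 (79.4%) had neither, against 23.2% of all genes. H3K27me3 alone was found at 72 (18.5%), against 6.48% of all genes, H3K4me3 alone at 7 and both marks at 1. In the other H3K27me3 list 145 olfactory receptors had H3K27me3 alone and 236 had neither. Of 27 taste receptors 25 had neither; TAS1R1, a receptor for savoury taste, had H3K4me3 alone (4037 bp). Of 53 clustered protocadherins, adhesion proteins of neurons on chromosome 5, 41 had neither and 12 had H3K4me3 alone.

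Markers of other cell types lay mostly outside the H3K4me3 class. Of 25 immune, blood and endothelial markers 12 had neither, 6 H3K4me3 alone, 4 both and 3 H3K27me3 alone; the 3 were CD3D, CD3E and CD3G of T cells. Of 20 mesenchymal, muscle and epithelial markers 14 had neither. The start-side setting covers only part of the 20, of which 3 had H3K4me3 alone and 3 neither. Of 18 glial markers 7 had neither, 5 H3K4me3 alone, 4 both (OLIG1, OLIG2, PDGFRA and SLC1A2) and 2 H3K27me3 alone (MAG and MOG of myelin). With the other H3K27me3 list 5 glial markers had H3K4me3 alone, 4 both, 4 H3K27me3 alone and 5 neither, and at a -log10 q of at least 5 H3K4me3 alone and neither held 7 each. Of 57 cancer-testis genes on the X chromosome 35 had neither, 17 had H3K27me3 alone, among them GAGE2A (4374 bp), and 5 MAGEA genes (MAGEA2, MAGEA2B, MAGEA3, MAGEA6 and MAGEA12) had H3K4me3 alone. A class of neither at the gene ends is not an absence of marks in the gene: with the whole gene 732 of the 4602 had H3K4me3 alone, 133 both, 205 H3K27me3 alone and 3532 (76.7%) neither. With windows at every listed start added, 413 of them had H3K4me3 alone.

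Part of each class lay in runs of neighbouring genes. H3K27me3 alone held 48 runs of at least 5 consecutive genes with 416 of its 1284 genes. The longest was 39 genes over 454 kb of chromosome 17 (40861303 to 41315710), from KRT12 to KRTAP17-1. A run of 27 genes on chromosome 1 held the PRAMEF genes, and a run of 17 on chromosome 19 held LILR and KIR genes. Runs of 10 genes included KLK5 to KLK14, the kallikreins, on chromosome 19. Both marks held 12 runs with 73 genes, the longest 10 genes on chromosome 12 (53708517 to 54056030), CALCOCO1 and HOXC13 to HOXC4. Shorter runs with both marks held WNT6 to IHH on chromosome 2 (7 genes), the ParaHox genes GSX1, PDX1 and CDX2 with URAD and FLT3 on chromosome 13 (5 genes) and the alpha-globin genes HBZ to HBQ1 on chromosome 16 (5 genes). The longest run with neither, 39 genes on chromosome 11, held OR51 and OR52 olfactory receptors and the beta-globin genes HBB, HBD, HBG1, HBG2 and HBE1, so the 2 globin clusters lay in different classes.

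H3K27me3 was sparse on 2 chromosomes. A peak of H3K27me3 lay at 2.88% of genes on chromosome 7 and 4.36% on X, against a range from 6.02% on chromosome 3 to 23.8% on chromosome 20 over the others. The list held 394 H3K27me3 peaks on chromosome 7 and 500 on X, against 14236 on chromosome 1. H3K4me3 lay at 66.2% of genes on chromosome 7 and 57.9% on X, within its range elsewhere (57.1% on chromosome 21 to 77.8% on chromosome 16). With the other H3K27me3 list the shares were 8.23% on chromosome 7 and 11.4% on X, still the 2 lowest, against 33.5% on chromosome 20. The part of copy number or of the alignment in this was not tested, and the classes of genes on chromosome 7, the HOXA cluster included, are read with it. Without chromosomes 7 and X, 1404 genes had both marks and 1251 had H3K27me3 alone.

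**Figure D5:**
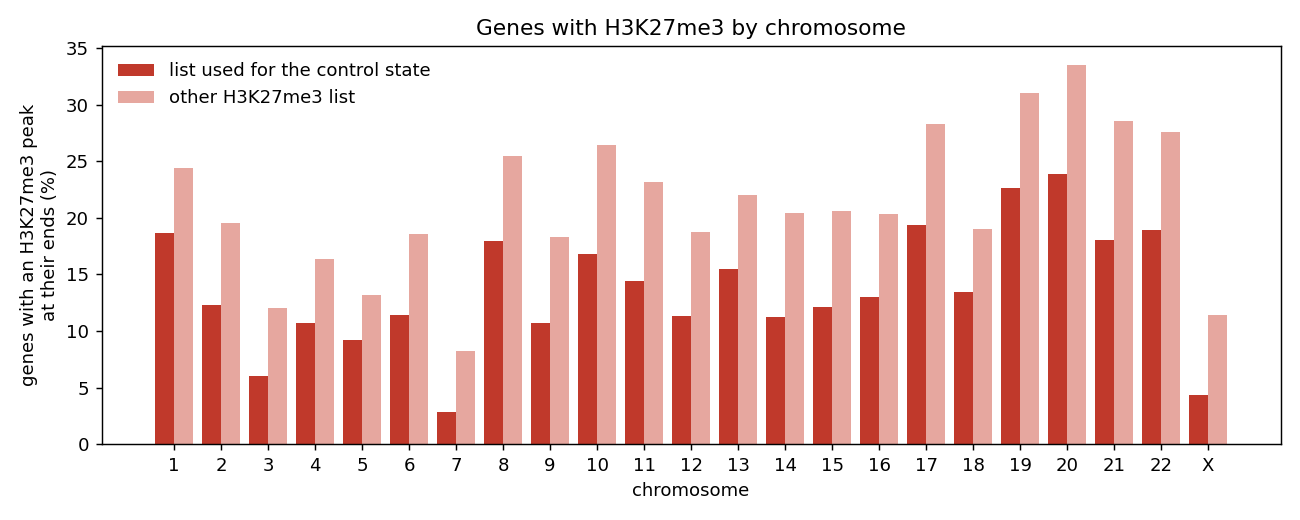
Percent of protein-coding genes with an H3K27me3 peak in their windows, by chromosome, for the list named OTX2high by its header and for the other list. Chromosomes 7 and X are lowest in both lists (2.88% and 4.36%, and 8.23% and 11.4%).

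Most genes had the same class in the 2 lists of the other header. Of the 19821 genes 17867 (90.1%) stayed in their class: 91.0% of those with H3K4me3 alone, 93.7% of those with both, 93.5% of those with H3K27me3 alone and 85.9% of those with neither. The largest movements were 891 genes from H3K4me3 alone to both and 584 genes from neither to H3K27me3 alone. Both movements add H3K27me3, and the other H3K27me3 list covers 97.0 Mb against 20.2 Mb.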

How the data were processed

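Chromatin from 6 libraries was sequenced, and 2 peak lists were classed here, with the 2 lists of the other condition for comparison. The submitters' processing notes name Bowtie2 (2.3.3.1), MACS2 (2.1.1.20160309) and the GRCh38 build; further alignment settings are not given in the sources used here. Narrow peaks were called at q 0.05 against 1 IgG library with 1 tag kept per position, per the file headers. The deposited lists give a pileup signal per peak, -log10 p and -log10 q values and a fold enrichment ratio, made by the authors. They were used only to describe or filter peaks within a list.

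Protein-coding genes of RefSeq GRCh38.p14 on chromosomes 1 to 22 and X were used, without 153 genes placed on scaffolds (19974 before, 19821 after). A peak sharing at least 1 bp with the 2 kb on either side of a gene end gave the mark. Overlaps were computed in Python 3.11.15 (numpy 2.4.6, pandas 2.3.3, scipy 1.17.1, matplotlib 3.10.9), tested on simulated data (200 of 200 seeded genes recovered per mark) and checked with bedtools 2.31.1, which gave the same genes for all 4 lists. The text names the 10 genes per class with the most bp of the mark, up to 4 members per class of each list, every member where a class holds 5 or fewer, OTX2, PAX3, PAX6 and the tumour panels; other names (HOXA9 and HOXA11, members of runs) were chosen after their values were seen. The gene classes and the 97 lists and families were chosen with earlier results of these data known. Other H3K27me3 and H3K4me3 lists, windows, thresholds and gene filters were tried. The IgG libraries and the tables of differential regions were not used here. A few single genes are not reported here.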

Additional observations from a re-analysis of the deposited data

How the results depend on the processing

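With the other H3K27me3 list, 2310 genes had both marks. The H3K4me3 medians were then 2688 bp and a pileup of 160 with H3K4me3 alone, and 1821 bp and 94 with both; the H3K27me3 medians were 1716.5 bp and a pileup of 21 with both, and 2456 bp and 20 with H3K27me3 alone. With the start side only (13792 genes), 720 genes had both marks and 728 had H3K27me3 alone. At a -log10 q of at least 5, 740 had both and 602 had H3K27me3 alone. Without genes that share a window with another, 5661 had H3K4me3 alone and 834 had both. The start-side setting tests fewer genes and leaves out the far window, the loss of shared windows tests fewer genes, and the threshold removes peaks. What part each of these had in the movements was not tested, nor was the cause of the change with the other H3K27me3 list. In the remaining settings (windows of 1 and 5 kb, a fold of at least 4, at least 200 bp covered, at least 2 H3K27me3 peaks, the H3K4me3 list of OTX2low and 5 settings chosen after seeing the data) each class count stayed within 1.5 times its value. The share of H3K27me3 genes that also had H3K4me3 ranged from 44.4% (marks overlapping) to 61.7% (whole gene). Of 97 lists and families, 85 kept their most frequent class with the other H3K27me3 list, 85 at a -log10 q of at least 5 and 86 with the start side only. A tie was given to the first of H3K4me3 alone, both, H3K27me3 alone and neither, so a tied list can count as kept. With the other H3K27me3 list, H3K4me3 alone tied with both for helix-loop-helix, Forkhead, SOX and synaptotagmin genes, all counted as kept. Photoreceptor genes and glial markers, where H3K4me3 alone tied with neither, were counted as changed. H3K27me3 peaks were low (median pileup 9), so absence of this mark means only that no peak was called in this list. The fragment length used was 78 bp in this list and 169 bp in the other, whose median pileup was 14. Whether that length or the depth had a part in this was not tested. No paired analysis was possible because each mark and condition has 1 library.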

Other observations

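Some gene groups, part of them counted in families above, were spread differently over the classes. Of 69 replication-dependent histone genes, 52 had H3K4me3 alone, 2 both and 15 neither. Of 44 collagen genes, 21 had H3K4me3 alone, 8 (18.2%, against 7.24% of all genes) both, 4 H3K27me3 alone and 11 neither. COL1A1, the main collagen of bone and skin, had 2060 bp of H3K4me3 and 1729 bp of H3K27me3. Of 30 neuropeptide receptor genes, 6 (20.0%, against 6.48% of all genes) had H3K27me3 alone, among them the somatostatin receptor SSTR5 (3751 bp). SSTR2 had H3K4me3 alone (2686 bp). Of the 30, 12 had H3K4me3 alone and 5 both, and with the other H3K27me3 list 7 and 10. Of 25 GABA and glycine receptor genes, 16 had H3K4me3 alone, GABBR1 had both and GABRD had H3K27me3 alone (5383 bp). Of 386 solute carriers, 233 (60.4%) had H3K4me3 alone, 26 both, 23 H3K27me3 alone and 104 neither, close to the shares over all genes.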
